A study of Xenopus tropicalis with 12 samples.

Results

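A set of 89 genes differed by 2-fold or more between the TRα (-/-) and WT hind limb of Xenopus tropicalis tadpoles in the same direction without and with T3. By the group means described below, T3 moved them by less than 2-fold in WT. They were found among 14320 tested genes of 19921 in the file, and 80 of them were higher and 9 lower in TRα (-/-). The genes were chosen by their CPM (counts scaled to the TMM-corrected size of each library), averaged over the 3 libraries of a group, with 0.1 added before log2. The log2 difference between genotypes had to be 1 or more, or -1 or less, in both comparisons, the T3 change in WT between -1 and 1, and the highest group mean at least 1 CPM. The genotype differences and T3 changes of these genes are therefore a description of what was chosen and carry no test.

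The study measured hind limb RNA of wild type (WT) tadpoles and of TRα (-/-) tadpoles, in which both copies of the gene for thyroid hormone receptor α (TRα) are disrupted. Tadpoles of each genotype were left untreated or were kept for 18 hours in 10 nM T3, the most active form of thyroid hormone, at stages 52 to 54. The paper states that WT animals were bought from a supplier, and that TRα (-/-) animals were bred from TRα (+/-) parents. Whether the sampled WT and TRα (-/-) tadpoles shared parents was not tested, and neither was a difference in genetic background. Each of the 4 groups was 1 RNA sample merged from several tadpoles, from which 3 libraries were made, so every SD below is a spread between libraries of 1 pool and variation between tadpoles was not measured.

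TRα binds DNA at T3 response elements together with a retinoid X receptor. Without hormone it recruits corepressors and keeps its target genes low, and with T3 bound it recruits coactivators and raises them. In frog tadpoles TRα is made before the thyroid gland is active, and growth of the hind limb is among the earliest responses to the hormone.

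The files carry Ensembl gene identifiers without symbols, so genes are given by scaffold and position in the JGI X. tropicalis assembly. The genes for TRα and for limb cell types were not analysed here, and neither the knockout nor the tissue could be checked by markers. Total counts ran from 32649742 to 52430305 per library. The TMM factor, which corrects each total, was 1.32 to 1.35 in WT with T3 and 0.854 to 0.956 in the other 9 libraries. In whole-limb RNA, fewer cells of a type and less RNA per cell cannot be told apart.

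Of all tested genes, 162 passed the genotype bound upwards in both comparisons and 13 passed it downwards. T3 moved 68 of the former and 3 of the latter by 2-fold or more in WT, and another 14 and 1 lay under the level floor, which left the 80 and 9. Another 281 genes passed the bound in opposite directions without and with T3. Scaled by total counts alone, the same rule took 45 higher and 91 lower genes, of which 35 and 8 were among the 80 and 9. That scaling moved the median of all genes by -0.49 on the log2 scale in the comparison with T3 and by -0.09 in the one without. All 89 genes kept their direction in both comparisons under the 3 scalings tried, of which TMM was used to choose them. Genes chosen at 2-fold or more could not change direction by shifts of this size or less, so nothing is read from this. Under total counts, 41 of the 80 stayed at 2-fold or more in both.

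**Figure D1:**
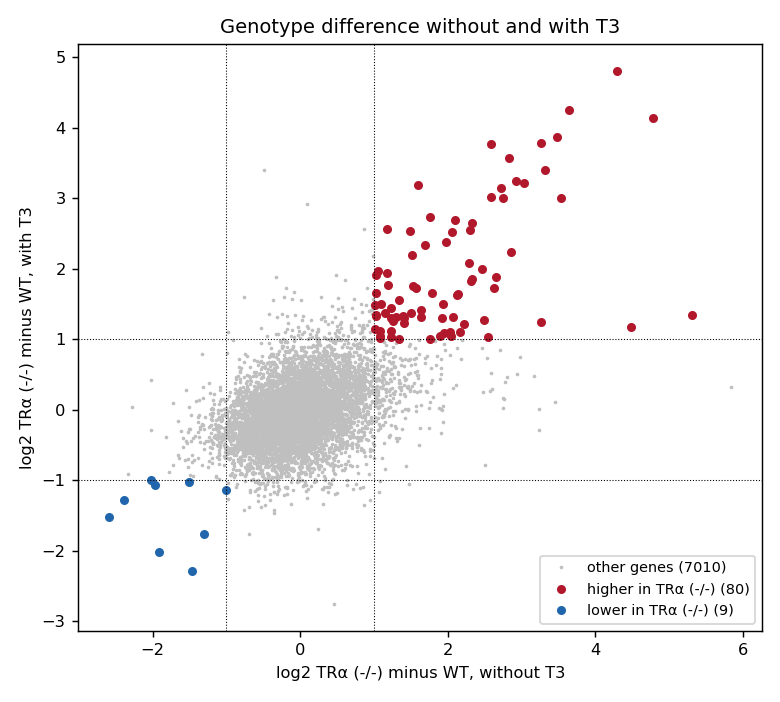
Log2 difference of TRα (-/-) minus WT without T3 (horizontal) and with T3 (vertical) for the 7099 tested genes within the T3 bound and at the level floor, 1 point per gene. Dotted lines mark 2-fold, and the 80 higher (red) and 9 lower (blue) genes lie in the corners that the rule selects.

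Among the 80 higher genes the median log2 difference was 1.93 without T3 (quartiles 1.29 and 2.56) and 1.65 with T3 (quartiles 1.29 and 2.53). Over all tested genes the medians were 0.01 and -0.01. In both comparisons 20 of the 80 differed by 4-fold or more and 8 by 8-fold or more. For the 9 lower genes the medians were -1.91 and -1.28, and none reached 4-fold in both. The 3 TRα (-/-) libraries lay above the 3 WT libraries without T3 in 80 of 80 higher genes, where 39.2% of all tested genes did so, and with T3 in 79 of 80, where 38% did. All 9 lower genes lay below WT without overlap, beside 38.7% without T3 and 38.3% with T3 of all tested genes. By edgeR (adjusted p under 0.05 and 2-fold), all 80 were called upwards and all 9 downwards in both comparisons, where 1.51% and 0.209% of all tested genes were. Upwards calls covered 13% of all tested genes without T3 and 11.4% with T3, and downwards calls 7.35% and 3.77%. The rule used the same contrasts, so nothing is read from these shares.

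**Figure D2:**
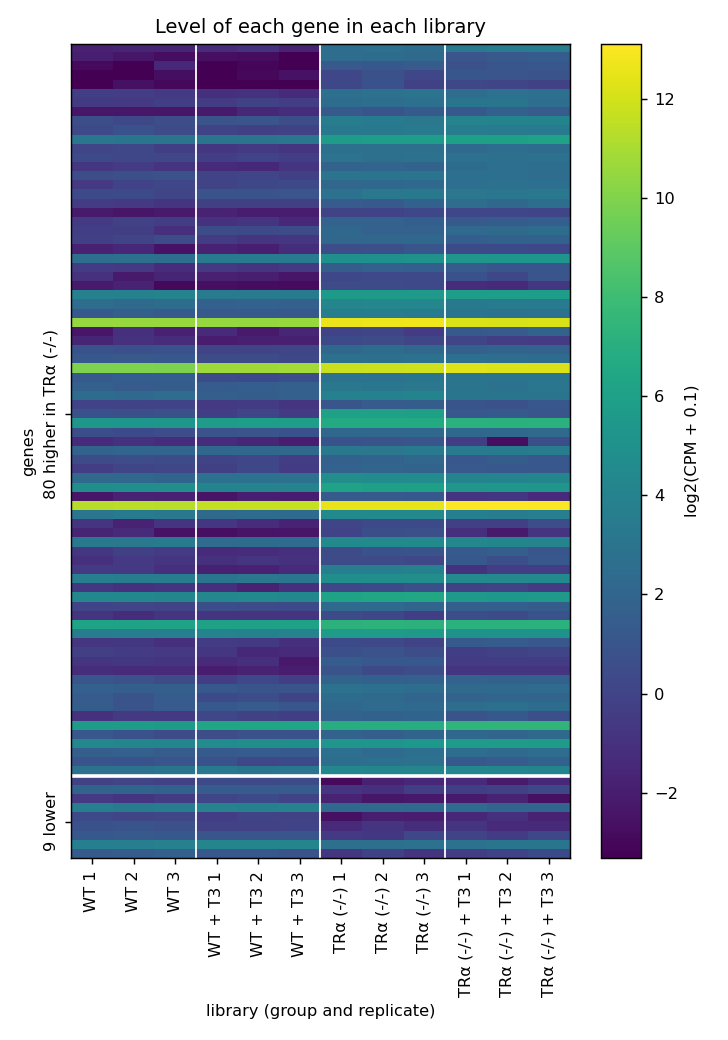
Level of the 89 genes in each of the 12 libraries as log2(CPM + 0.1) in colour, genes ordered within each direction by the smaller of their genotype differences. The 80 higher genes are brighter in the 6 TRα (-/-) libraries and the 9 lower genes darker, and 1 higher gene has a dark cell in TRα (-/-) + T3 replicate 2.

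The gene with the largest difference by the smaller of both comparisons was ENSXETG00000006901, which has 27 exon blocks on the plus strand at GL172654.1:2472774-2508714. Without T3 the WT libraries had 0.190, 0.223 and 0.230 CPM and those of TRα (-/-) 5.99, 6.65 and 5.52. With T3 it had 0.333, 0.420 and 0.214 CPM in WT, against 10.5, 12.1 and 12.6 in TRα (-/-). All 6 knockout libraries stood far above the 6 WT libraries, by 4.29 on the log2 scale without T3 and 4.81 with T3. Its level in TRα (-/-) was also higher with T3 than without, with no overlap between the libraries.

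ENSXETG00000033806 is a gene of a single exon block of 246 bp at GL172675.1:3891931-3892176. It was close to undetected in WT, at 0.158, 0.0955 and 0.0511 CPM without T3 and 0.0624, 0.0435 and 0 CPM with T3. In TRα (-/-) it had 5.82, 5.51 and 5.10 CPM without T3 and 1.93, 2.29 and 2.63 CPM with T3. The log2 differences were 4.79 and 4.14. The genotypes did not overlap in either condition, and within TRα (-/-) the T3 libraries were the lower ones.

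Low WT levels were common among the higher genes. WT had under 0.5 CPM both without and with T3 in 21 of the 80, or 26.2%. Over the 13156 tested genes with a highest group mean of 1 CPM or more that share was 0.418%, but a gene that is low in WT can meet the level floor only if it is higher in TRα (-/-). The gene at GL173157.1:127938-145034 had 1, 0 and 10 counts in WT without T3 and 69, 68 and 91 in TRα (-/-). With T3 it had 1 count in 1 of the WT libraries and 64, 80 and 66 counts in TRα (-/-), a ratio of 316 with a counting interval of 56.2 to 12600. Most of its WT signal without T3 thus came from replicate 3.

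At GL173179.1:763435-779473, a gene of 12471 bp of exon, WT without T3 had 2 counts in all and TRα (-/-) had 32, 49 and 36, a ratio of 61.5 with a counting interval of 16.7 to 514. With T3 the counts were 0, 2 and 4 in WT and 80, 76 and 55 in TRα (-/-). At GL173168.1:362163-365378, WT had 0, 2 and 1 counts without T3 and none in any library with T3, while TRα (-/-) had 33, 53 and 29 without and 43, 39 and 26 with T3. With WT set to a floor of 3 counts over the group, the ratio with T3 was 54.2. The lower limit of the counting interval was 43.4. These intervals cover counting error only, and no library of TRα (-/-) overlapped one of WT at either gene.

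Other genes had more counts in WT. At GL173349.1:100459-108216 the level was 0.729, 0.70 and 0.587 CPM in WT and 6.61, 7.35 and 8.0 in TRα (-/-) without T3, and 0.395, 0.435 and 0.311 against 5.88, 6.94 and 6.70 with T3. The log2 differences were 3.26 and 3.78. At GL173705.1:15492-32996, which was picked for its level after its values were seen, means were 8.24 ± 0.45 and 8.18 ± 0.57 CPM in WT without and with T3 (SD, n = 3). TRα (-/-) had 56.1 ± 2.9 and 66.1 ± 2.8 CPM there. The T3 change in WT was -0.01 on the log2 scale under TMM. Total counts alone moved the T3 change in WT by 0.52 in the median of all genes, so an unchanged level is not read from this.

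The most abundant of the 89 were a pair of neighbours on GL172650.1 and a gene on GL172667.1, with group means between 1246 and 9841 RPKM (CPM per kb of exon). The first of the pair, at GL172650.1:2211914-2214658, had 1483, 1506 and 1540 CPM in WT, against 6428, 6540 and 6842 in TRα (-/-) without T3. With T3 it had 1446, 1464 and 1508 CPM in WT, against 4597, 4528 and 4563 in TRα (-/-). Its log2 difference was 2.13 without and 1.63 with T3, and the T3 change under TMM was -0.04 in WT and -0.53 in TRα (-/-).

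The second, at GL172650.1:2246212-2250371, averaged 971 ± 15 CPM in WT and 3723 ± 116 in TRα (-/-) without T3 (SD, n = 3). With T3 the means were 1762 ± 57 and 4994 ± 80 CPM, so its level was higher with T3 in both genotypes, by 0.86 and 0.42 on the log2 scale. The gene at GL172667.1:3479300-3486319 averaged 2619 ± 47 and 6161 ± 27 CPM without T3, and 3186 ± 112 and 8676 ± 234 with T3. No library of these 3 genes crossed from one genotype's range to the other's.

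In all, the 89 genes took 0.508% of the raw counts in WT, 0.919% in WT with T3, 1.53% in TRα (-/-) and 1.82% in TRα (-/-) with T3. The SDs between the 3 libraries of a group were at most 0.017. The TMM factor, which was highest in WT with T3, was not applied to these shares. They therefore do not measure the T3 change in CPM. Most of the raw counts of the 89 belonged to few genes. The gene on GL172667.1 and the first of the neighbours on GL172650.1, the 2 most abundant by CPM, together took 0.380%, 0.623%, 1.10% and 1.25%. The typical member was low. The highest group mean had a median of 5.96 CPM over the 80 higher genes and 2.21 CPM over the 9 lower, against 16.8 CPM over all tested genes. Per kb of exon the medians were 4.87, 1.21 and 8.86 RPKM. In 53 of the 80 (66.2%) the highest mean was under 10 CPM, and in 6 it was 100 CPM or more. A low level was not particular to the 89. Within the same T3 bound and level floor, 201 genes passed the genotype bound with T3 and not in the same direction without it. Their median highest mean was 6.64 CPM, with 61.7% under 10 CPM. For the 464 genes of the converse these were 15.7 CPM and 39.9%.

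The lower genes were few and mostly of low level. ENSXETG00000000267, at GL172742.1:925539-929729, had 0.855, 0.987 and 0.792 CPM in WT, against 0.0329, 0.190 and 0.256 in TRα (-/-) without T3. With T3 it had 1.17, 1.16 and 1.32 CPM against 0.297, 0.124 and 0.256. Its log2 differences were -1.91 and -2.01, and no library of one genotype reached the range of the other.

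ENSXETG00000005261, of 17 exon blocks at GL172655.1:3137503-3214475, had 3.74, 3.88 and 3.37 CPM in WT, against 0.461, 0.380 and 0.740 in TRα (-/-) without T3. With T3 the levels were 2.64, 2.58 and 2.68 against 0.717, 0.771 and 1.06 CPM. The log2 differences were -2.59 and -1.53, the smaller one in the presence of T3. Under TMM, WT was lower and TRα (-/-) higher there than without T3.

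The 2 best expressed of the lower genes lay at GL172642.1:6173640-6192579 and GL173084.1:963993-973697. The former averaged 13.8 ± 0.69 CPM in WT and 6.78 ± 0.34 in TRα (-/-) without T3, and 17.5 ± 0.18 and 7.89 ± 0.72 with T3 (SD, n = 3). For the latter the means were 12.2 ± 0.70 and 4.89 ± 0.19 CPM without T3, and 15.4 ± 0.46 and 4.47 ± 0.73 with T3. These pairs of means give log2 differences of -1.01 and -1.14 for the former and -1.31 and -1.76 for the latter.

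The other 5 lower genes lay at GL172814.1:1063958-1065394, GL172703.1:471568-474608, GL172853.1:216132-253427, GL172994.1:764223-778597 and GL172772.1:2180027-2198495. Their TRα (-/-) means were between 0.122 and 0.924 CPM, and their WT means between 0.554 and 2.75 CPM. At these levels the number of lower genes depended on the constant added before log2: with 1 CPM in place of 0.1, 1 lower gene passed. The higher genes depended on it too: 55 passed, of which 45 were among the 80. With at least 10 counts asked of every library, 4 lower genes were left.

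Within WT the T3 change was bounded by the rule. The median over the 80 higher genes was -0.20 on the log2 scale under TMM and 0.22 under total counts alone, so no direction can be given for it. By edgeR (adjusted p under 0.05 and a fitted change of 2-fold), 2 of the 80 were called upwards and 3 downwards in WT. Of the 9 lower genes 1 was called downwards, beside 22.8% upwards and 25.1% downwards of all tested genes. The libraries with and without T3 did not overlap in WT in 18 higher genes upwards and 32 downwards, beside 43.2% and 46.1%. In TRα (-/-) the T3 change of the higher genes had a median of -0.26, with quartiles of -0.63 and 0.34, and of -0.14 under total counts. It was called upwards in 2 of the 80 and downwards in 10, where 7.14% and 9.64% of all tested genes were (edgeR, adjusted p under 0.05 and 2-fold). Of the 9 lower genes 1 was called upwards. The libraries of TRα (-/-) did not overlap in 24 of the 80 upwards and 38 downwards, beside 37.2% and 38%. A gene with a small T3 change in WT and a genotype difference on both sides of the treatment is held to part of the range in TRα (-/-) too, so these shares are given with no reading.

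**Figure D3:**
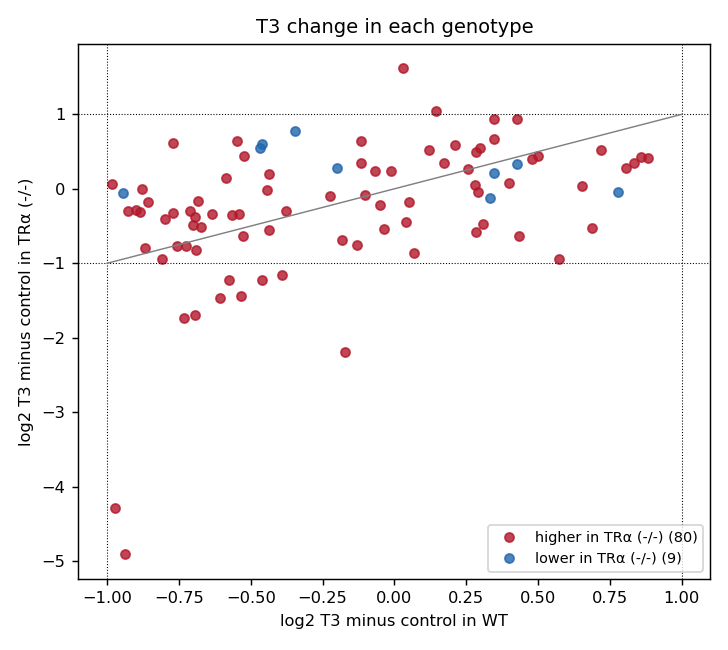
T3 change (log2, T3 minus control) in WT (horizontal) and in TRα (-/-) (vertical) for the 89 genes, 1 point per gene, with the diagonal of equal change. WT values lie between the bounds of -1 and 1 by the rule, and 2 higher genes lie far below the others, at -4.91 and -4.29 in TRα (-/-).

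The T3 change minus that in WT, which equals the genotype difference with T3 minus the one without, had a median of 0.02 over the 80 higher genes and ran from -3.97 to 1.59. It lay within 0.5 of 0 in 43 of the 80 and in 4 of the 9 lower genes, and the genotype difference was larger with T3 in 41 of the 80. These values are under TMM. Under total counts alone the median genotype difference of the 80 was 1.84 without and 1.15 with T3, against 1.93 and 1.65 under TMM. The comparison of both conditions thus depends on the scaling, and no direction is read from the 0.02 or the 41. By edgeR under TMM, the difference in T3 change was called upwards in 6 and downwards in 6 of the 80. Of the 9 it was called upwards in 3, beside 17.7% upwards and 16.6% downwards over all tested genes.

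In 10 of the higher genes the T3 change in TRα (-/-) was -1 or less on the log2 scale. The 3 with the most negative change were chosen after their values were seen, and the other 7 lay between -1.73 and -1.15. At GL172687.1:3147279-3156838 TRα (-/-) had 68.7, 68.4 and 64.9 CPM without T3 and 2.10, 2.44 and 1.89 CPM with T3. WT had 1.65, 1.53 and 1.61 CPM without and 0.728, 0.985 and 0.642 CPM with T3, so the log2 genotype difference was 5.31 without T3 and 1.34 with T3. This was the largest difference without T3 among the 89.

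A like course was seen at GL173110.1:716627-722997, where TRα (-/-) averaged 13.7 ± 1.0 CPM without and 0.607 ± 0.16 CPM with T3, and WT 0.519 ± 0.12 and 0.216 ± 0.067 CPM (SD, n = 3). At GL173223.1:292744-302392 the means were 2.35 ± 0.094 and 0.435 ± 0.13 CPM in TRα (-/-) and 0.155 ± 0.052 and 0.126 ± 0.039 CPM in WT. Both kept a genotype difference above 2-fold with T3, of 1.16 and 1.24 on the log2 scale. The opposite course was seen at GL174228.1:27343-28326, where TRα (-/-) had 0.954, 0.982 and 0.655 CPM without T3 and 2.42, 2.56 and 3.59 with T3. WT averaged 0.219 ± 0.15 and 0.225 ± 0.091 CPM there under TMM, and its libraries without and with T3 overlapped.

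Positions on the scaffolds were not used to choose the genes. The 89 lay on 76 of the 1778 scaffolds with a tested gene. Another of the 89 lay within 100 kb of 19 of them, or 21.3% (95% Wilson interval 14.1% to 31.0%), whereas 2.01% of all tested genes had one of the 89 within 100 kb (288 of 14320, 1.79% to 2.25%). At 50 kb the shares were 16.9% and 1.19%, and for the next tested gene on the scaffold 18.0% and 1.08%. At 500 kb they were 22.5% and 5.84%, and anywhere on the same scaffold 27% and 12.5%. On scaffolds with at least 5 tested genes they were 22.7% and 2.14% at 100 kb. The intervals treat genes as independent, which neighbours are not, and no test was run.

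Genes within the same T3 bound and at the level floor that passed the genotype bound in 1 comparison, and not in the same direction in the other, were set beside them. Some of these passed it in opposite directions. Of the 464 that passed without T3, 15.3% (12.3% to 18.9%) had another of the 464 within 100 kb, against 10.2% of all tested genes. Of the 201 that passed with T3, 6.97% (4.19% to 11.4%) had one of their own, against 4.07%. On scaffolds with at least 5 tested genes these shares were 17.5% against 11.2% for the 464 and 3.57% against 4.35% for the 201, and at 500 kb 31.5% against 25.4% and 11.9% against 12.3%. Larger sets have a higher share over all tested genes, so each set is read against its own. Scaled by total counts alone, the share for the genes then chosen in both comparisons was 10.3%, against 2.79% of all tested genes.

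**Figure D4:**
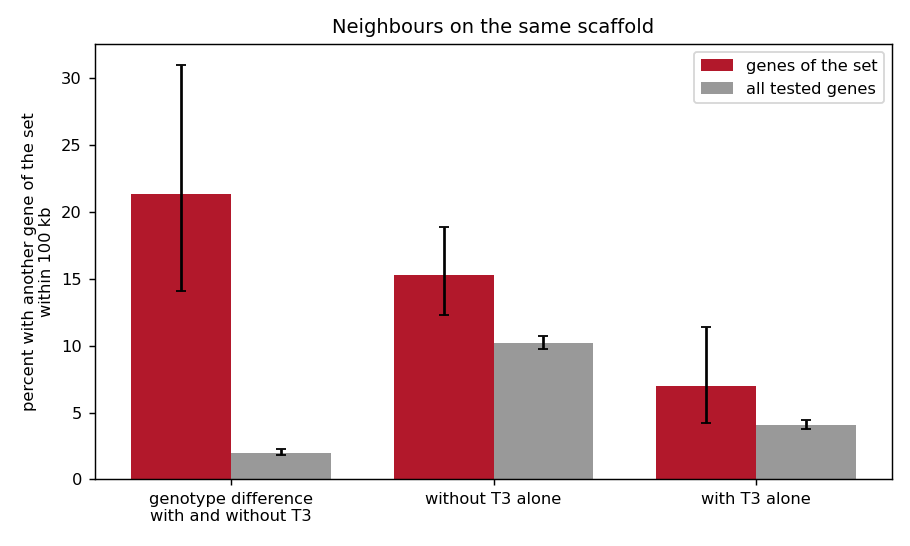
Percent of genes with another gene of the set within 100 kb on the scaffold, for the genes of each set (red) and for all tested genes (grey), with 95% Wilson intervals. The 89 genes with a genotype difference with and without T3 stand at 21.3% beside 2.01%, those that passed without T3 and not in the same direction with T3 (without T3 alone) at 15.3% beside 10.2%, and those of the converse (with T3 alone) at 6.97% beside 4.07%.

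The 19 neighbouring genes formed 9 groups, 8 pairs and 1 group of 3. All of them were higher in TRα (-/-), as were 80 of the 89. In 7 of the groups no other tested gene lay between the members. The closest members on the same strand were 1144 bp apart on GL174228.1 and 1755 bp apart on GL173464.1. Whether neighbouring members are separate transcripts was not tested, and the handling of multiply mapped reads is not given. The pair with the largest differences was on GL172675.1, where ENSXETG00000033806 lies 22756 bp from the gene at 3843588-3869175. The latter had 1.11, 1.66 and 1.23 CPM in WT, against 10.0, 9.79 and 10.5 in TRα (-/-) without T3. With T3 it had 0.936, 0.782 and 0.836 against 11.8, 11.2 and 10.5 CPM, so that the log2 differences were 2.83 and 3.56. Another member at 3591942-3598480 of the scaffold had log2 differences of 2.33 and 2.65. The 4 tested genes before the pair, from 3682921 to 3789041, had log2 differences between -0.70 and 0.34.

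On GL172907.1 the gene of 1 exon block at 225417-226835 had 0.602, 0.573 and 0.715 CPM in WT, against 5.49, 5.95 and 6.18 in TRα (-/-) without T3. With T3 the levels were 0.645, 0.840 and 0.681 against 8.26, 8.26 and 6.06 CPM. Its neighbour at 270060-271373 was at the level floor, with 0.117 ± 0.018 and 0.163 ± 0.039 CPM in WT and 0.963 ± 0.10 and 1.01 ± 0.040 CPM in TRα (-/-), without and with T3 (SD, n = 3). Under TMM both pairs of genotype differences were close between conditions, 3.03 and 3.21 for the former and 2.30 and 2.07 for the latter on the log2 scale. The next 2 tested genes on this scaffold, at 291680-293149 and 311017-313008, were lower with T3 in WT by 4.69 and 3.74 on the log2 scale. They therefore differed between genotypes with T3, by 3.72 and 3.35, and not by 2-fold without it.

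The group of 3 lay within 55.5 kb on GL173464.1. Its first gene, at 297890-298534, had 20.1, 20.0 and 18.9 CPM in WT, against 75.4, 79.3 and 87.0 in TRα (-/-) without T3, and 19.5, 22.0 and 20.4 against 44.8, 42.9 and 45.6 CPM with T3. The gene of 44 exon blocks at 326290-349211 averaged 0.344 ± 0.065 CPM in WT, against 1.76 ± 0.13 in TRα (-/-) without T3. With T3 its TRα (-/-) libraries had 28, 2 and 46 counts, or 0.692, 0.0498 and 1.47 CPM, and replicate 2 lay below the WT libraries at 0.333, 0.246 and 0.136 CPM. This is the 1 higher gene whose genotypes overlapped with T3. The last of the group, at 350966-353374, averaged 0.575 ± 0.090 and 0.758 ± 0.0094 CPM in WT and 2.79 ± 0.52 and 5.45 ± 0.78 CPM in TRα (-/-), without and with T3.

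Between the first and second of these genes lay one at 304933-307976 with log2 genotype differences of 2.01 and 2.53, which was left out because its T3 change in WT was -2.65 on the log2 scale. Genes left out in the same way flanked 3 of the pairs. Before the pair on GL172690.1 the gene at 3046787-3101130 had log2 differences of 2.08 and 3.85 and a T3 change of -1.83 in WT. After the pair on GL173093.1 the gene at 140293-144584 had 1.36 and 1.58, with a T3 change of -1.84. After the pair on GL172650.1 the gene at 2259980-2263930 had 3.94 and 1.90, with a T3 change of 3.33.

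On GL172650.1 the following genes differed in course from the pair. At 2283129-2288104 the group means were 20.8 CPM in WT, 299 in WT with T3, 525 in TRα (-/-) and 525 in TRα (-/-) with T3. At 2314600-2317301 they were 0.439, 38.8, 38.3 and 25.8 CPM in the same order. There WT with T3 had reached or approached the TRα (-/-) level, which the pair did not, its WT means with T3 being 1473 and 1762 CPM against 4563 and 4994 in TRα (-/-).

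In the remaining groups the members' genotype differences were 1.98 and 2.37 and then 1.48 and 2.53 on the log2 scale for the pair on GL172690.1, without and with T3. On GL172834.1 they were 2.31 and 1.83 at 749088-749747 and 1.63 and 1.31 at 800006-831387. On GL172920.1 a well counted gene at 401579-420973 had 73.5, 71.6 and 72.0 CPM in WT, against 152, 156 and 153 in TRα (-/-) without T3, and 66.4, 68.1 and 67.5 against 146, 146 and 143 CPM with T3. Under TMM this gene had almost the same difference in both conditions, 1.08 and 1.11. Its T3 changes were -0.10 in WT and -0.08 in TRα (-/-). Its neighbour at 449819-468130 had differences of 1.53 and 1.76. Under total counts alone the median of all genes moved by -0.49 in the difference with T3 and by 0.52 in the T3 change in WT. How equal such differences are, and how small a T3 change in WT is, thus depends on the scaling.

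On GL173093.1 the members at 20975-26972 and 107722-134185 had log2 differences of 2.66 and 1.88 and of 1.69 and 2.33. A tested gene between them, at 79059-94306, went the other way, with -0.96 and -0.70. The pair on GL174228.1, at 27343-28326 and 29470-32066, held the scaffold's only 2 tested genes, and both had the larger difference with T3, 3.18 against 1.6 and 2.56 against 1.18. Over all 239 tested genes within 100 kb of a higher gene that were not among the 89, the median log2 difference was 0.03 without T3 and 0.09 with T3. Of these, 13.8% and 15.5% reached 2-fold upwards, against 11.8% and 9.93% of all tested genes.

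**Figure D5:**
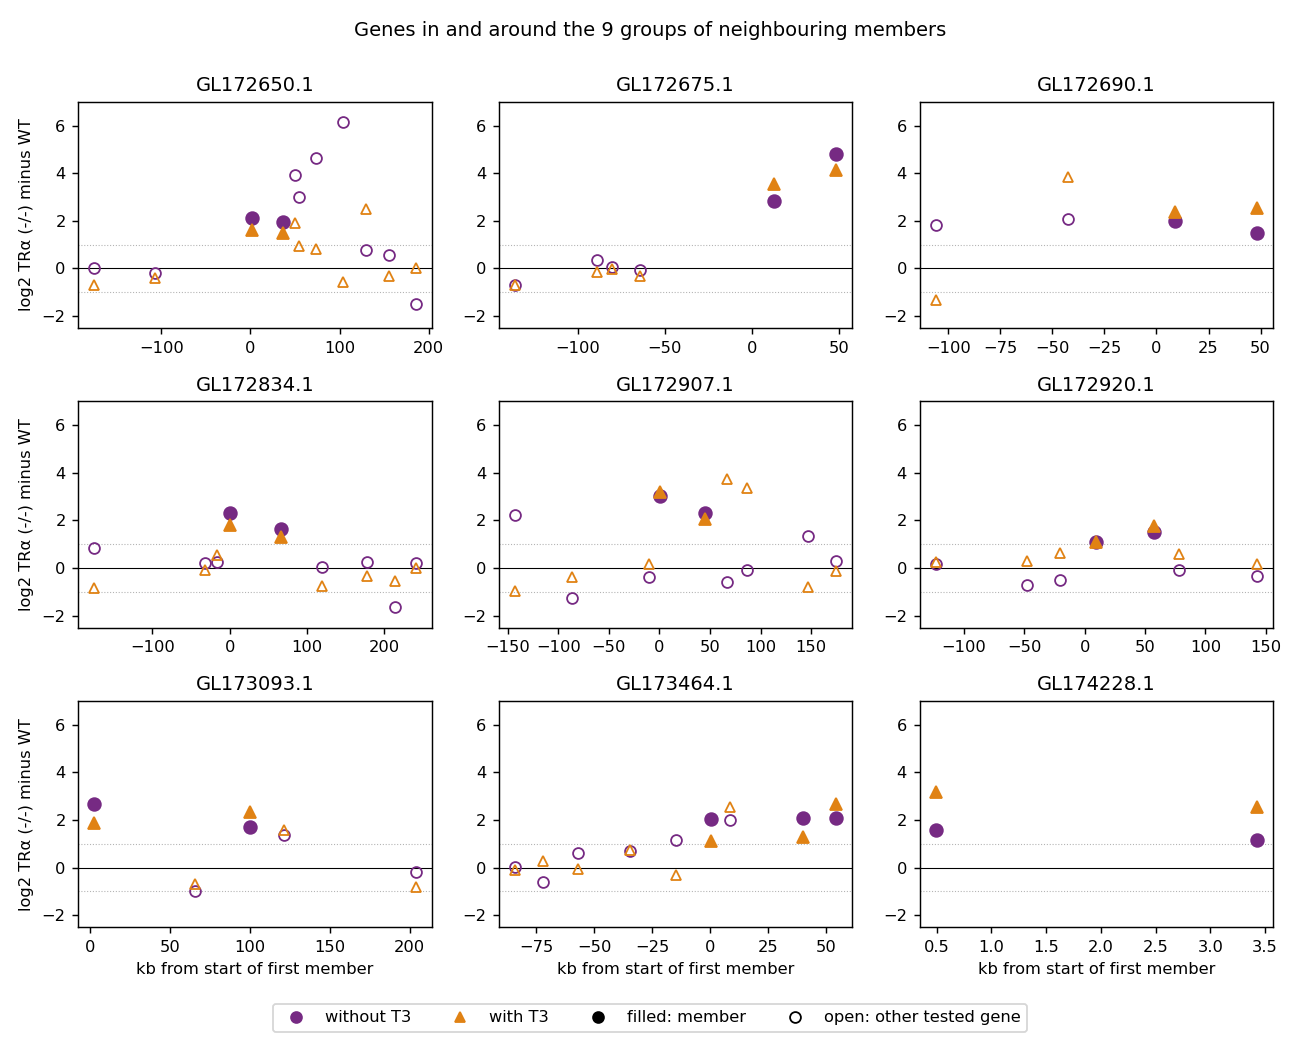
Log2 difference of TRα (-/-) minus WT without T3 (circles) and with T3 (triangles) for the tested genes in and around the 9 groups of neighbours, by distance in kb from the start of the first member. Filled points are the 19 grouped members of the 89, which lie above the dotted line of 2-fold in every panel, and open points are other tested genes, including the gene of GL173093.1 at -0.96 and -0.70 between its 2 members.

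The gene models of the higher genes were shorter than those of all tested genes. Their median summed exon length was 1298.5 bp, against 1756 bp for the 9 lower genes and 1761 bp over all tested genes, and their median number of exon blocks 6.5, against 9 and 9. The median span on the scaffold was 7026 bp, against 14375 and 14568 bp. Of the 89, 10 had a single exon block (11.2%, against 4.39% of all tested genes). All 10 were higher in TRα (-/-), as were 80 of the 89. Among the tested genes with a highest mean of 1 CPM or more, 3.39% had a single block. The 464 genes that passed without T3 alone and the 201 with T3 alone lay between. Of these, 8.62% and 5.97% had a single block, with median spans of 12424 and 13487 bp and median exon lengths of 1637 and 1625 bp. The spans of 3 of the 89 overlapped another gene, at GL172992.1:712376, GL172754.1:1401560 and GL172721.1:1804189, and their counts are uncertain because the handling of strand is not stated. None of the 89 lay on the mitochondrial genome.

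At the edges of the rule, the last genes inside the genotype bound lay at GL173075.1:439200 and GL172693.1:1434402, with differences of 1.003 and 1.005 with T3. The first outside were at GL172774.1:381949, with 0.99 with T3, and at GL173545.1:8527, with 0.99 without T3. At the T3 bound the gene just inside lay at GL172690.1:3156248, with -0.98 in WT, and the one just outside at GL172654.1:5283990, with -1.001. At the level floor the gene at GL172907.1:270060 passed with 1.01 CPM and that at GL173007.1:597136 missed it with 0.975 CPM. Leaving out each of the 12 libraries in turn, 57 of the 89 passed every time, 53 higher and 4 lower. The most lost at once were 11, without replicate 2 of WT with T3, the library that also differed most from the others of its group beyond counting noise.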

How the data were processed

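RNA of 12 hind limb libraries, 3 technical libraries from each of 4 pools, was sequenced as poly-A RNA in paired ends. The authors mapped them to Ensembl's JGI genome of the species and deposited raw counts per gene over exons, with scaffold, exon coordinates and summed exon length in bp, with no normalization. STAR 2.5.3a and featureCounts 1.4.6-p3 are named in the submitters' processing notes, whereas the paper's methods name other versions of both. Strand and multiply mapped reads: handling not given in the sources used here. Poly-A selection favours polyadenylated transcripts.

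In R 4.3.3 with edgeR 4.0.16, genes were filtered by filterByExpr over the 4 groups (14320 kept) and scaled by TMM. The rule was applied to group mean CPM plus 0.1 on the log2 scale. Background calls came from the quasi-likelihood fit and test of edgeR (glmQLFit, glmQLFTest), in which each group had its own mean and the 12 libraries shared 1 estimate of spread, at Benjamini-Hochberg adjusted p under 0.05 and 2-fold, and the p-values measure only the spread between libraries of a pool. The common biological coefficient of variation was 0.0421. Scripts were tested on simulated data. Neighbours were counted at 100 kb between gene bodies, and shares carry 95% Wilson intervals. The alternatives were DESeq2 1.42.0 and its size factors, total counts alone, other filters, offsets, bounds and distances, the replicate number as a block, and leaving out each library. A fit without the T3 bound and one without the level floor were chosen after seeing the data. The members, lists and tests were chosen with earlier results of these data known.

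None of the 19921 identifiers (0) occurred in the name table given, which holds 28858 genes, so no symbol, role or sequence is reported. Named by identifier are the 2 higher and 2 lower genes with the largest smaller genotype difference and no overlap between libraries. Described by position are the next 5 in each direction, the neighbouring members and the genes at the bounds. Every library column was mapped by its name. Libraries of a group differed by more than sampling noise (chi-square per degree of freedom 1.88 to 11), so none was counted as a duplicate. Deviations of libraries with equal replicate number correlated between -0.142 and 0.187 over 18 pairs, so the numbers were not taken as pairs.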

Additional observations from a re-analysis of the deposited data

Results flagged for a closer look

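In 15 of the 89 genes the T3 change differed between genotypes by edgeR's interaction (adjusted p under 0.05 over all tested genes, 2-fold or more), given here on the log2 scale and positive where TRα (-/-) had the more upward T3 change. Over all tested genes 17.7% were called upwards and 16.6% downwards, beside 9 and 6 of the 89. The rule bounds the contrasts from which the interaction is built and the libraries are technical replicates, so these values describe the pools. The interaction was positive at GL173157.1:127938 (3.29), GL174228.1:27343 (1.72), GL174228.1:29470 (1.57), GL172703.1:471568 (1.55) and GL173547.1:160858 (1.35). It was also positive at GL180251.1:23068 (1.21), GL172655.1:3137503 (1.11), GL172690.1:3156248 (1.11) and GL172772.1:2180027 (1.09). It was negative at GL172906.1:1537886 (-1.10), GL173458.1:161127 (-1.24), GL172923.1:359791 (-1.61), GL173223.1:292744 (-2.13), GL173110.1:716627 (-3.27) and GL172687.1:3147279 (-3.98). At GL173157.1:127938 the fitted value rests on 1 count in WT with T3 and 11 in WT without it, 10 of them in replicate 3, and the same difference from group means with 0.1 CPM added was 0.61. At GL173547.1:160858 TRα (-/-) had 3.59, 4.02 and 3.64 CPM without T3 and 5.49, 6.27 and 5.99 CPM with T3, while WT had 0.507, 0.637 and 0.485 CPM and 0.312, 0.261 and 0.447 CPM. At GL172923.1:359791 the order was the reverse, with 3.61 ± 0.26 and 1.83 ± 0.34 CPM in TRα (-/-) and 0.535 ± 0.11 and 0.845 ± 0.16 CPM in WT (SD, n = 3).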

How the results depend on the processing

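The reported 80 higher and 9 lower genes became 45 and 91 with total counts alone, 75 and 11 with DESeq2 size factors, 45 and 2 with a level floor of 5 CPM, 281 and 157 with a genotype bound of 1.5-fold and 20 and 0 with one of 4-fold. Lower genes numbered 4 with at least 10 counts in every library and 1 with an offset of 1 CPM. Higher genes numbered 47 with a T3 bound of 1.5-fold and 141 with no T3 bound in WT, an alternative chosen after seeing the data. The share with another member within 100 kb was 21.3% as reported, against 2.01% of all tested genes. It was 10.3% against 2.79% with total counts alone, and 12.8% against 1.18% with the level floor of 5 CPM. With the genotype bound of 1.5-fold it was 18% against 9.3%, a smaller contrast with all tested genes. The 4 genes named by identifier were followed under DESeq2 size factors, total counts, an offset of 1 CPM and with each library left out. None reversed direction there, but they were chosen for large differences. The size of their differences depended on the offset. With 1 CPM in place of 0.1, the log2 differences without and with T3 were 2.54 and 3.27 for ENSXETG00000006901 and 2.56 and 1.66 for ENSXETG00000033806. Those of ENSXETG00000000267 were -0.70 and -0.85, under 2-fold in both, and those of ENSXETG00000005261 were -1.61 and -0.98. The bounds and floors act by construction on how many genes pass. The cause of the change under total counts was not tested, but the median of all genes moved with it.

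With 1 library left out at a time there were 76 to 84 higher and 7 to 10 lower genes, a neighbour share of 17.4% to 25%, 2 to 4 members called upwards and 10 to 11 downwards for T3 in TRα (-/-), and 8 to 11 upwards and 6 to 8 downwards for the interaction. With the replicate number as a block, edgeR called 80 higher and 9 lower genes in both genotype comparisons, and it called 3 up and 10 down for T3 in TRα (-/-) and 9 up and 7 down for the interaction, against 9 and 6 without the block. DESeq2 called 76 of the 80 and all 9 in both genotype comparisons. Over all tested genes, edgeR without the block called 1.51% upwards and 0.209% downwards in both. For T3 in TRα (-/-) the same fit called 7.14% of all tested genes upwards and 9.64% downwards. For the interaction it called 17.7% and 16.6%. The rule used the same genotype contrasts and limits the other contrasts, so nothing is read from any of these calls. Each group is 1 pool, so no setting speaks of variation between tadpoles, and at under 1 CPM a few counts set the fold.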
